A study of Mus musculus with 12 samples.

Results

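Arginine is read by 2 sets of codons, and the tRNAs named tRNA-Arg-CCT and tRNA-Arg-TCT, with the anticodons CCT and TCT in DNA letters, serve the smaller set, the two-codon box AGG and AGA. Every row whose entry name starts with one of these names was taken: 10 entries, which hold 9 distinct sets of values (CCT-2-1 and CCT-2-2 are identical and are given as CCT-2-1), of 213 distinct tRNAs in all. There are 4 distinct CCT tRNAs and 5 distinct TCT tRNAs. The study mapped pseudouridine in HSPCs (hematopoietic stem and progenitor cells, from which blood cells arise) of old and of young wild-type mice. The groups are old cells with CMC, old cells with BEU buffer alone, young cells with CMC and young cells with BEU buffer alone, with 3 libraries each. All 12 libraries share the wild-type genotype and the AlkB demethylation. The labels do not give the ages, nor do they say that each replicate is a different animal; the p-values therefore rest on how much these libraries vary.

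Pseudouridine is an isomer of uridine made in place by pseudouridine synthases, and uridine is written T here. CMC, a carbodiimide, stays on pseudouridine after the carbonate step and halts reverse transcriptase, so a stop rate (the percent of reads over a base that end there) that CMC raises marks a candidate pseudouridine. In mammalian tRNA, PUS10 and TRUB1 act in the T loop, PUS1 in the anticodon stem on its 5′ side and PUS3 on its 3′ side. The series title names PUS10.

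The sequences below are the bases in the deposited rows of 4 of these tRNAs, chosen because they hold the called bases described below and the differences at bases 27 and 50; capitals mark each T called in at least 1 age. A T in lower case was not called or not tested: bases 27 and 28 of both TCT tRNAs and bases 39 and 40 of TCT-3-1 lacked the coverage for a test. Bases are counted from the 5′ end, which puts the anticodon at 34 to 36 and the T-loop bases TTC at 54 to 56 in all 8 tRNAs that have these rows.
tRNA-Arg-CCT-1-1: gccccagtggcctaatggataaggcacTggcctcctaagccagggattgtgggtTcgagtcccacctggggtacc
tRNA-Arg-CCT-4-1: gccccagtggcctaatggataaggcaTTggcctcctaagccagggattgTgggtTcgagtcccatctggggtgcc
tRNA-Arg-TCT-1-1: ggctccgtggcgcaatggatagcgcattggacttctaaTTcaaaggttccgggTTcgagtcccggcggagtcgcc
tRNA-Arg-TCT-3-1: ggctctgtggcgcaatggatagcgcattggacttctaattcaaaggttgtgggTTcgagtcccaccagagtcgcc
The CCT tRNAs differ from each other by 1 to 3 bases. CCT-2-1 differs from CCT-1-1 by A73G, and CCT-4-1 differs from CCT-1-1 by C27T, C65T and A73G (the base of CCT-1-1 first, then the position, then the other base). TCT-3-1 differs from TCT-2-1 by A59G and from TCT-1-1 by 6 bases, among them C49G and C50T. Such near-identical tRNAs may share reads. Of the stop counts up to base 35, 80.7% were equal in CCT-1-1 and CCT-2-1, and 77.9% in TCT-2-1 and TCT-3-1. The share was lower, at 14.3% and 19.0%, for CCT-1-1 with CCT-3-1 and with CCT-4-1. It was 12.6% for CCT-1-1 with TCT-1-1, which differ by 24 bases. The sources used here do not say how the authors divided reads between near-identical tRNAs. The values of such tRNAs therefore cannot be taken as independent, and their split is uncertain.

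The summed highest coverage of all tRNAs was 201980 to 767650 reads in CMC libraries and 533736 to 1061426 in BEU libraries. The CCT and TCT tRNAs made up 0.702% to 1.11% of it in CMC libraries and 2.05% to 3.22% in BEU libraries. Coverage was highest for CCT-4-1 and TCT-1-1, which reached the ceiling of the tables in 1 to 3 BEU libraries at some base. Between 21 and 103 tRNAs reached it in each BEU library and 0 to 56 in each CMC library, which limits these sums and shares. Of CCT-3-1 only bases 11 to 75 and of TCT-4-1 only bases 1 to 14 were analysed here. The highest coverage of TCT-4-1 was 5 to 18 reads in old CMC, 19 to 23 in old BEU, 9 to 31 in young CMC and 46 to 59 in young BEU libraries, and none of its bases could be tested.

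CMC raised stops at 19 T bases of these tRNAs in old cells and at 18 in young cells, and all 18 were also called in old cells. They lay in the T loop, in the anticodon stem and at 1 base of the T stem. Of 138 T bases, 76 had the coverage to be tested; 25.0% of these were called in old cells and 23.7% in young cells. Over all tRNAs 20.3% of tested T bases were called in old cells and 18.8% in young cells, and in the tRNA-Arg of the four-codon box (ACG, CCG and TCG) 22.1% and 21.4%, so the share in the CCT and TCT tRNAs was near the background. The 57 T bases called in neither age changed by -16.73 to 10.7 points in old cells and by -16.2 to 8.3 points in young cells.

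**Figure D1:**
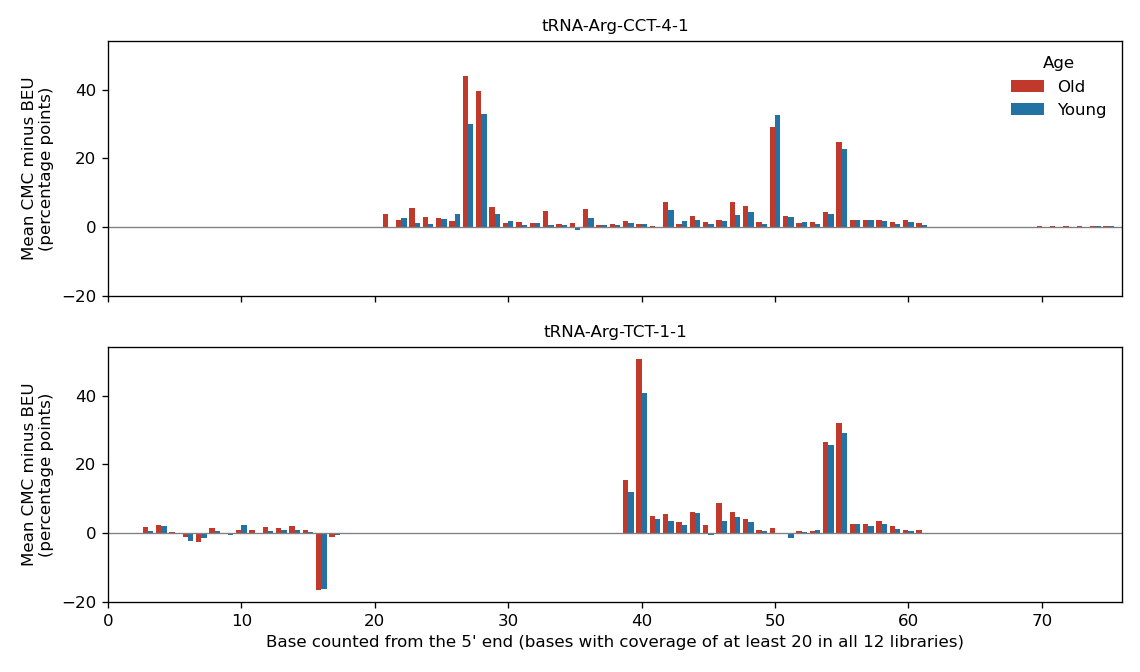
Mean rise of the stop rate with CMC (CMC minus BEU, percentage points, mean of 3 pairs) at each tested base of tRNA-Arg-CCT-4-1 and tRNA-Arg-TCT-1-1, in old (red) and young (blue) cells; gaps are untested bases. In CCT-4-1 the tall bars stand at bases 27, 28, 50 and 55, in TCT-1-1 at bases 39, 40, 54 and 55, and base 16 of TCT-1-1 lies below 0.

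In the T loop, T55 was called in all 7 tRNAs where it was tested in old cells and in 6 in young cells. The share called over all tRNAs was not counted for this or any other single position. The four-codon box had T55 called in all 10 tRNAs in both ages. Its rises there were 21 to 47 points in old and 17.6 to 42.9 points in young cells. T55 of CCT-1-1 had stop rates of 12.9%, 10.9% and 13.4% in old CMC libraries against 0.152%, 0.231% and 0.254% in old BEU libraries. In young cells it had 14.5%, 13.5% and 20.1% with CMC against 0.0819%, 0.18% and 0.117% with BEU. All CMC libraries lay above all BEU libraries, and the rise was 12.2 ± 1.33 points in old cells (SD, n = 3 pairs; edgeR adjusted p = 9.95e-08) and 15.9 ± 3.6 points in young cells (edgeR adjusted p = 5.06e-08). T55 rose by 14.2 ± 2.21 points in old cells in CCT-2-1, but by 9.7 ± 0.64 points in young cells, which is under the minimum of 10 points (edgeR adjusted p = 1.9e-06). In CCT-3-1 it rose by 13.2 ± 6.37 points in old and 13.25 ± 2.73 points in young cells, and without old replicate 2 the old value was 9.67 points and under the minimum. CCT-4-1 had larger rises than the other CCT tRNAs, of 24.6 ± 1.48 points in old and 22.7 ± 3.35 points in young cells.

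The TCT tRNAs had the larger T55 rises of these tRNAs. T55 of TCT-1-1 had 32.5%, 35.7% and 28.8% in old CMC libraries against 0.202%, 0.262% and 0.208% in old BEU libraries. Young libraries had 31%, 25.7% and 31.8% with CMC against 0.363%, 0.503% and 0.269% with BEU. T55 of TCT-2-1 rose by 44.5 ± 9.6 points in old and 54.2 ± 6.39 points in young cells, and T55 of TCT-3-1 by 48.1 ± 4.65 and 44.3 ± 8.36 points. T55 of TCT-5-1 was not tested because its lowest coverage was 19 reads; it had 59.2%, 50% and 47.5% in old CMC libraries and 40.9%, 40.2% and 36.8% in young CMC libraries, and at most 0.913% in any BEU library.

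At T54, the base beside it, the CCT and TCT tRNAs had different values. T54 of TCT-1-1 had 27.5%, 29.1% and 25.8% in old CMC libraries against 0.722%, 0.918% and 1.3% in old BEU libraries. Among young libraries it had 26.1%, 21.8% and 32.2% with CMC against 0.792%, 1.56% and 1.01% with BEU. It was called in both ages, as were T54 of TCT-2-1, with rises of 33.5 ± 2.31 points in old and 22.6 ± 4.4 points in young cells, and T54 of TCT-3-1, with 15.8 ± 3.17 and 16.1 ± 5.52 points. In the 4 CCT tRNAs T54 rose by 3.18 to 5.48 points in old cells and by 3.78 to 5.31 points in young cells, all under the minimum for a call. T54 of TCT-5-1, with a lowest coverage of 11 reads, rose by 16.3 ± 7.9 points in old and 12.8 ± 8.37 points in young cells and was not tested. In the four-codon box, T54 was called in 5 of 10 tRNAs in old cells and in 4 in young cells, with rises of 7.19 to 68 points in old cells. The difference between CCT and TCT tRNAs at T54 was not tested.

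**Figure D2:**
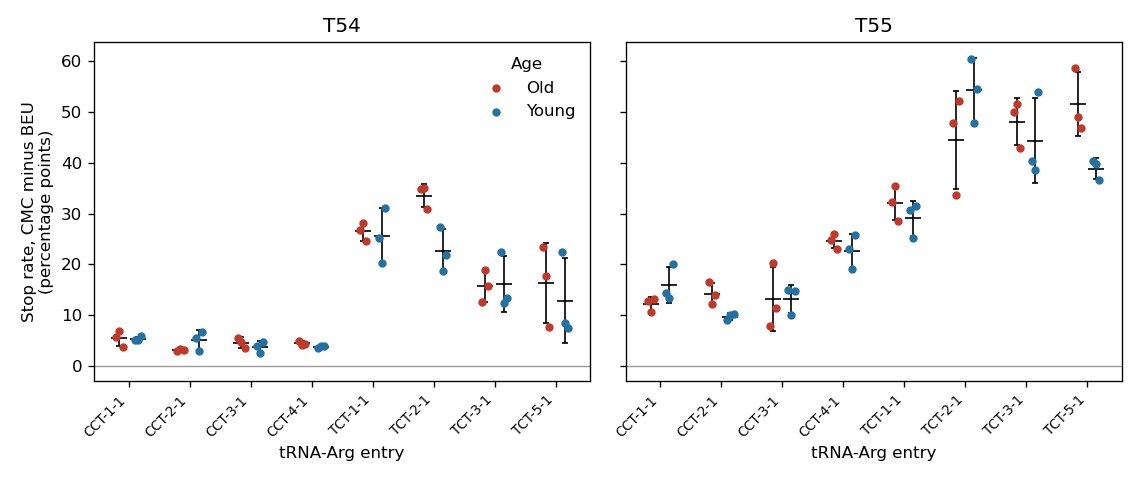
Rise of the stop rate with CMC (CMC minus BEU, percentage points) at T54 and T55 of 8 tRNA-Arg entries; each point is 1 pair of libraries, old (red) left of young (blue), with the mean and SD in black. Means at T54 of the CCT entries lie between 3.18 and 5.48 points, and T54 of the TCT entries and T55 of all entries lie higher, and TCT-5-1 was not tested.

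In the anticodon stem, T28 was called in all 4 CCT tRNAs in both ages. PUS1 is known for this position. How often T28 was called over all tRNAs was not counted, so whether these calls are particular to the CCT tRNAs was not tested. T28 of CCT-1-1 had 29.9%, 29.6% and 29.6% in old CMC libraries against 4.03%, 3.89% and 4.2% in old BEU libraries. The young values were 26.7%, 23.6% and 27.7% with CMC against 4.61%, 3.84% and 4.61% with BEU. The groups with and without CMC did not overlap, and the rise was 25.7 ± 0.21 points in old cells (edgeR adjusted p = 1.75e-07, n = 3 pairs) and 21.6 ± 1.68 points in young cells (edgeR adjusted p = 4.18e-07). T28 of CCT-2-1 rose by 25.8 ± 0.31 and 21 ± 1.95 points in old and young cells, T28 of CCT-3-1 by 43.9 ± 3.89 and 41.7 ± 3.65 points, and T28 of CCT-4-1 by 39.6 ± 1.62 and 32.9 ± 2.01 points. T27, T28 and T55 of CCT-4-1 and T54 and T55 of TCT-1-1 are not among the bases below the ceiling.

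Base 27 divides the CCT tRNAs, since CCT-3-1 and CCT-4-1 have T there and CCT-1-1 and CCT-2-1 have C. T27 of CCT-3-1 had 42.4%, 53.3% and 46.6% in old CMC libraries against 5.79%, 5.46% and 5.49% in old BEU libraries. For young cells the rates were 36.4%, 44.7% and 31.8% with CMC against 6.11%, 4.36% and 4.06% with BEU. T27 of CCT-4-1 rose by 43.9 ± 5.5 points in old and 30.1 ± 9.98 points in young cells; its stop rate in old BEU replicate 1, which was at the ceiling, was 0.213% against 2.12% to 2.64% in the other old BEU libraries. C27 of CCT-1-1, no uridine, was also called: it had 25.5%, 30.7% and 30.6% in old CMC libraries against 9.1%, 9.56% and 9.35% in old BEU libraries, and 23.8%, 26% and 16.4% in young CMC against 12.7%, 9.36% and 8.35% in young BEU libraries. The rise at C27 was 19.6 ± 2.78 points in old cells (edgeR adjusted p = 0.00251, n = 3 pairs) and 11.9 ± 4.32 points in young cells (edgeR adjusted p = 0.0264). C27 of CCT-2-1 rose by 19 ± 2.84 and 11.2 ± 4.38 points. The young calls at C27 were lost without any of the young replicates, with edgeR adjusted p of 0.0769 to 0.215, and without old replicate 2 or 3, with 0.0591 to 0.0733. They were also lost with 1 subtracted from stops and coverage (edgeR adjusted p = 0.114 in CCT-1-1 and 0.147 in CCT-2-1). All 10 tRNAs of the four-codon box had a called T27, with rises of 20.2 to 48.7 points in old and 15.6 to 47.1 points in young cells.

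On the 3′ side of the anticodon stem, T39 and T40 were called in TCT-1-1, the only TCT tRNA with enough coverage there. T40 of TCT-1-1 had 50.5%, 61.1% and 44.7% in old CMC libraries against 0.943%, 1.09% and 2.06% in old BEU libraries. In young cells this base had 38.5%, 40.5% and 47.2% with CMC against 1.19%, 1.67% and 1.22% with BEU. This was the largest rise in old cells among the tested T bases of these tRNAs, at 50.7 ± 8.76 points in old and 40.7 ± 4.59 points in young cells. T39, the position PUS3 is known for, rose by 15.5 ± 7.21 points in old and 11.9 ± 3.17 points in young cells. In the four-codon box T39 was called in 6 of 9 tRNAs in each age.

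**Figure D3:**
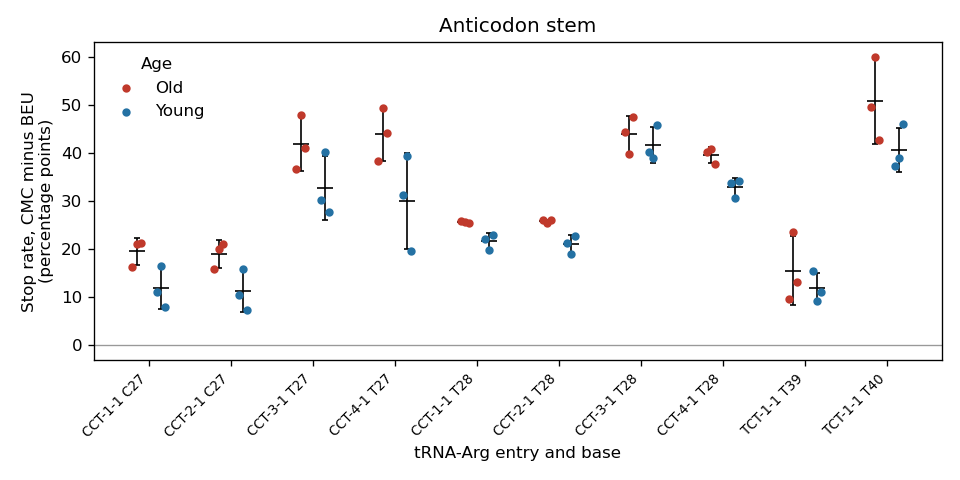
Rise of the stop rate with CMC (CMC minus BEU, percentage points) at bases of the anticodon stem; each point is 1 pair of libraries, old (red) left of young (blue), with the mean and SD in black. T27 and T28 of CCT-3-1 and T40 of TCT-1-1 lie above C27 of CCT-1-1 and CCT-2-1, and old means exceed young means at all 10 bases. None of the T bases shown was called between ages, and the near-identical CCT entries cannot be taken as independent. Over all tRNAs the mean rise was higher in old cells at 66.1% of tested T bases.

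In the T stem, T50 was called in CCT-4-1. It had 32.2%, 32.2% and 28% in old CMC libraries against 0.05%, 2.63% and 2.61% in old BEU libraries. Young cells gave 40.4%, 34.8% and 29.7% with CMC against 3.38%, 4.06% and 0.05% with BEU, and the 2 values of 0.05% come from libraries at the ceiling. The rise was 29 ± 3.39 points in old cells (edgeR adjusted p = 0.0215, n = 3 pairs) and 32.5 ± 3.98 points in young cells (edgeR adjusted p = 0.0318), and it is not among the bases below the ceiling. Without any old replicate the old call was lost (edgeR adjusted p of 0.052 to 0.0686), and without old replicate 2 or 3 or any young replicate the young call was lost (0.0508 to 0.0997), as it was with 1 subtracted from stops and coverage (0.0525) and with 1 adjustment over all bases (0.0719), while the rise stayed at 27.5 points or more. The same base in CCT-1-1, CCT-2-1 and CCT-3-1 rose by 0.401 to 1.3 points in old and 1.09 to 4.4 points in young cells. These differ from CCT-4-1 at base 65, among others, and whether that base matters was not tested. In the four-codon box T50 was called in 1 of 2 tested tRNAs in each age. Rises there were 14.5 to 42.3 points in old and 16.6 to 39.2 points in young cells.

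In the fit of all bases, no call was made at T33, T36, T47 or T60. T60, in the T loop, was tested in 8 tRNAs and rose by 0.776 to 7.09 points in old and by 0.721 to 7.99 points in young cells. T47, in the variable loop, was tested in 6 tRNAs and rose by 0.596 to 10.7 points in old and by 0.83 to 5.21 points in young cells. The upper value belongs to TCT-3-1 (edgeR adjusted p = 0.0622 in old cells, n = 3 pairs). T33 and T36, beside and in the anticodon, were tested in the 4 CCT tRNAs and changed by -4.85 to 5.22 points in old and by -5.58 to 2.75 points in young cells.

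Among A, C and G, 4 bases were called in old cells and 3 in young cells of 284 tested, or 1.41% and 1.06%, against 0.61% and 0.368% of such bases over all tRNAs. Beside C27 of CCT-1-1 and CCT-2-1 they were A59 of TCT-2-1 and G46 of TCT-3-1 in old cells and G57 of TCT-5-1 in young cells. A59 of TCT-2-1 rose by 11.3 ± 5.13 points in old cells (edgeR adjusted p = 0.0161, n = 3 pairs), and without old replicate 1 or 3 the call was lost (0.133 and 0.0724). G57 of TCT-5-1 rose by 10.1 ± 8.63 points in young cells; without young replicate 1 or 3, or without any old replicate, the call was lost (edgeR adjusted p of 0.0513 to 0.375), as it was with 1 subtracted (0.132). G46 lies where METTL1 methylates many tRNAs; in TCT-3-1 it had 23.9%, 42.9% and 25% in old CMC libraries against 12.2%, 15.2% and 19.4% in old BEU libraries, and its call was lost without any single replicate (0.0633 to 0.254) and with 1 subtracted (0.189).

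Between ages, none of 19 tested T bases was called for a difference in its CMC rise, and none of 439 over all tRNAs was called (0.0%). With 3 pairs per age, a lack of calls does not show that the rises were equal. At an unadjusted p under 0.05, 1 of the 19 and 22 of the 439 passed in edgeR, and limma called 0 of the 19. The rise was higher in old cells in 14 of 19 bases (73.7%), against 66.1% over all tRNAs. The differences, old minus young, ran from -9.73 to 13.8 points with a median of 3.6, against a median of 1.39 over all tested T bases. The old and young pairs did not overlap at 6 of 19 bases, or 31.6%, against 13.0% over all tRNAs. Bases of near-identical tRNAs may share reads, so the 19 cannot be taken as independent. T55 of TCT-1-1 had the lowest p, with an old minus young difference of 3.01 ± 2.82 points (SE, edgeR adjusted p = 0.96, n = 3 pairs each). The edgeR test compares the odds of a stop (stop against read-through reads), so its p and the difference in points are unlike measures. For the rise in points at this base the exact permutation test gave p = 0.4. Coverage of TCT-1-1 reached 7975 reads, at the ceiling, in old BEU replicate 1.

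Without CMC, the largest difference between ages lay in the anticodon of the CCT tRNAs. C34, the first anticodon base, of CCT-1-1 had 7.54%, 7.1% and 9.77% in old BEU libraries against 15.1%, 17.9% and 16.2% in young BEU libraries. C34 of CCT-3-1 had 5.54%, 4.25% and 5.3% in old against 10.3%, 12.1% and 13.1% in young BEU libraries. No old library reached a young one, and the old minus young differences were -8.28 ± 1.17 points in CCT-1-1 and -6.82 ± 0.913 points in CCT-3-1 (SE, n = 3 each). Over all bases these did not pass (edgeR adjusted p = 0.0839 for C34 of CCT-1-1, CCT-2-1 and CCT-3-1); none of 44 tested bases of the CCT and TCT tRNAs and none of 1190 over all tRNAs was called (0.0%), with 6 and 69 at an unadjusted p under 0.05, and limma called 0 of the 44.

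When only bases below the ceiling were fitted, C34 was called lower in old cells in CCT-1-1, CCT-2-1 and CCT-3-1 (edgeR adjusted p = 6.85e-05, 6.39e-05 and 6.39e-05). C35 was called lower in the same 3 tRNAs (0.000811, 0.000967 and 0.00599), as was G46 of TCT-3-1 (0.0274). These are 7 of 41 bases, or 17.1%, against 5.38% of 893 over all tRNAs; none was called higher in old cells, against 0.224% over all tRNAs. C35 of CCT-1-1 had 6.43%, 4.81% and 7.15% in old against 11.4%, 11.3% and 12.3% in young BEU libraries. G46 of TCT-3-1 had 12.2%, 15.2% and 19.4% in old against 21.5%, 27.1% and 21.6% in young BEU libraries. Old BEU libraries were all lower than young ones at 13 of the 44 bases (29.5%), against 15.6% over all tRNAs. CCT-1-1 and CCT-2-1 share reads, so their values are not independent.

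The same order held at C34 with CMC. C34 of CCT-1-1 had 2.66%, 2.17% and 2.42% in old CMC libraries against 5.26%, 5.76% and 6.36% in young CMC libraries. C34 of CCT-4-1 had 2.65%, 3% and 2.32% in old against 7.36%, 7.22% and 6.67% in young CMC libraries, and 0.0376% (at the ceiling), 2.24% and 3.01% in old against 5.67%, 6.96% and 6.63% in young BEU libraries. Old and young CMC libraries did not overlap at C34 in any of the 4 CCT tRNAs, which are near-identical and cannot be taken as independent. The share of such bases over all tRNAs was not counted for CMC libraries. With 3 against 3 libraries the two-sided exact permutation test gave p = 0.1, the smallest it can give. In CCT-1-1 the stop rate at C34 was lower with CMC than with BEU in both ages, by -5.72 ± 1.41 points in old and -10.62 ± 1.35 points in young cells. C34 of the CCG tRNAs in the four-codon box had 1.07% to 2.55% in old and 0.557% to 2.3% in young BEU libraries. Whether the age difference at C34 is larger in the CCT than in the CCG tRNAs was not tested.

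**Figure D4:**
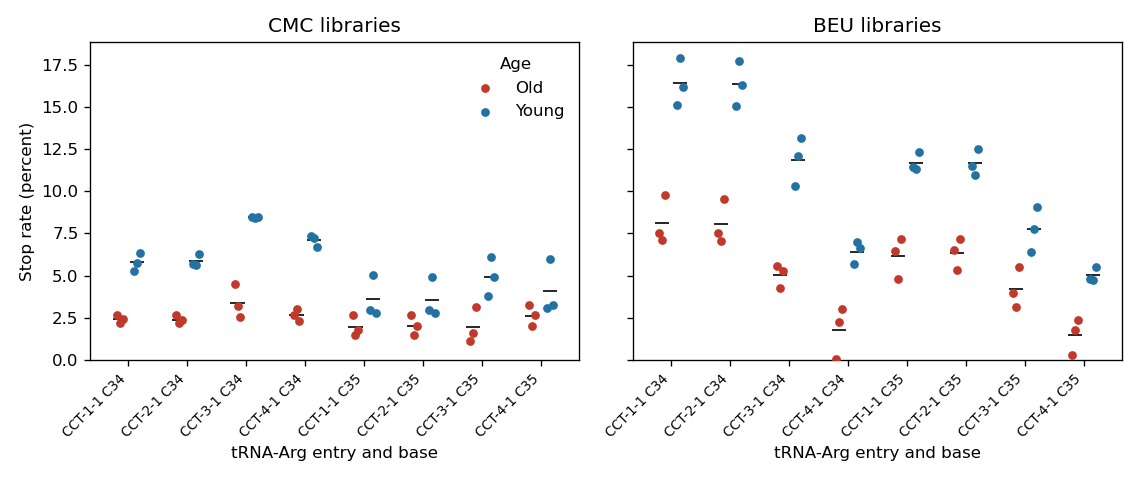
Stop rate (percent) at C34 and C35 of the 4 CCT tRNAs in CMC libraries (left) and BEU libraries (right); each point is 1 library, old (red) left of young (blue), and black lines are means. At C34 all old libraries lie below all young ones in both panels. C34 was named after its values were seen, and the share of such bases over all tRNAs was not counted for CMC libraries. The old BEU point near 0 at C34 of CCT-4-1 is the library whose coverage had reached the ceiling at or 5′ of that base.

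The 6 highest BEU stop rates of tested bases were at T16 and T20 of CCT-1-1 and CCT-2-1 and at G46 and T16 of TCT-1-1. T16 and T20 lie in the D loop, where tRNAs commonly carry dihydrouridine. T16 of CCT-1-1 had 31.8%, 34.7% and 33.7% in old and 32.8%, 32.2% and 30.4% in young BEU libraries, and CMC changed it by -1.04 ± 7.12 points in old and 2.11 ± 2.34 points in young cells. T20 of CCT-1-1 had 26%, 33.5% and 28.7% in old and 27.1%, 32.9% and 26.5% in young BEU libraries. G46 of TCT-1-1 had 14.5%, 21.9% and 20.9% in old and 24.5%, 29.5% and 22.5% in young BEU libraries, without a call in either fit.

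A58 and C32 are bases that carry methyl groups on their base-pairing face in tRNAs of this kind, 1-methyladenosine and, from METTL2 in tRNA-Arg of these anticodons, 3-methylcytidine, and AlkB was used to remove such groups. BEU stop rates at A58 of the 8 tRNAs were 0.199% to 2.78% in old cells and 0.28% to 7.41% in young cells. At C32 of CCT-1-1 they were 5.08%, 4.59% and 4.03% in old cells and 5.77%, 6.41% and 4.8% in young cells. Both lay below T16 of the same tRNAs.

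T16 of TCT-1-1 went the other way with CMC. It had 3.12%, 4.35% and 5.21% in old CMC libraries against 24.4%, 19.5% and 18.9% in old BEU libraries. In young cells it had 4.41%, 5.36% and 5.41% with CMC against 20.6%, 21.4% and 21.8% with BEU. The stop rate fell by 16.73 ± 4.05 points in old cells (edgeR adjusted p = 1.85e-05, n = 3 pairs) and by 16.2 ± 0.18 points in young cells (edgeR adjusted p = 2.43e-05); over all tRNAs 0.685% of tested T bases fell by at least 10 points with an adjusted p under 0.05, in each age. T16 of TCT-2-1, TCT-3-1 and TCT-5-1, untested at a lowest coverage of 8 reads, was 5.26% to 13.3% in CMC and 25.1% to 33.1% in BEU libraries. These 3 tRNAs may share reads. Every base held at least 1 stop read in each library, so a rate at such low coverage cannot come near 0.

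**Figure D5:**
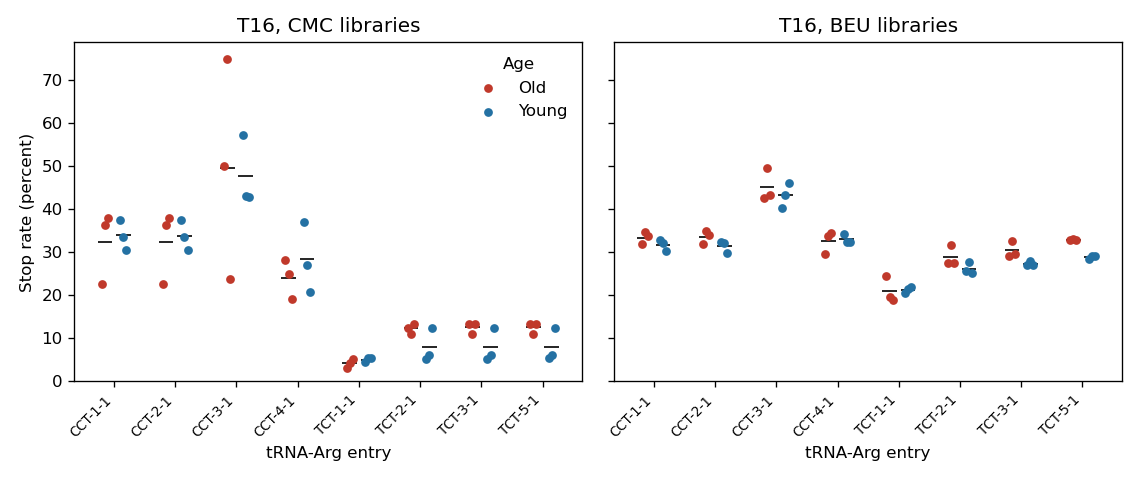
Stop rate (percent) at T16 of 8 tRNA-Arg entries in CMC libraries (left) and BEU libraries (right); each point is 1 library, old (red) left of young (blue), and black lines are means. TCT entries lie below 15% with CMC and above 18% with BEU, while CCT entries overlap between the panels; CCT-3-1, CCT-4-1, TCT-2-1, TCT-3-1 and TCT-5-1 were not tested here.

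The highest coverage of the 9 tRNAs did not pass in any between old and young BEU libraries, and none of 213 tRNAs was called (0.0%; edgeR adjusted p of 0.681 to 0.975 for the 9). At an unadjusted p under 0.05, 1 of the 9 and 12 of the 213 passed. That tRNA was TCT-4-1, with a normalised highest coverage of 18.6, 43.9 and 44.5 CPM (counts scaled to library size) in old against 54.7, 66.9 and 47.8 CPM in young BEU libraries, a log2 difference of -0.79. TCT-1-1 had 6453, 4921 and 4870 CPM in old against 4225, 4250 and 5174 CPM in young BEU libraries, which overlap. The value of 6453 CPM comes from a library where TCT-1-1 was at the ceiling, with 7975 reads. Between 21 and 103 tRNAs were at the ceiling in each BEU library, so these CPM values are limited measures of abundance. With only tRNAs below the ceiling, 0 of 7 were called. Fewer cells of a type and less RNA per cell cannot be told apart in such samples.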

How the data were processed

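Per the labels' protocols, small RNA of mouse hematopoietic stem and progenitor cells was demethylated with AlkB and then kept in BEU buffer, either plain or with CMC, before carbonate treatment and reverse transcription. Bowtie, Bowtie2 2.3.5 and the build mm10 are listed, without roles, per the submitters' processing notes. The authors deposited 6 tables; per the file headers, each row holds coverage (a read count), the count of stop reads and a stop rate. This deposited rate is a percent, and in every row it equalled 100 times the stop reads divided by coverage. The deposited stop reads are whole numbers, never below 1, and were also tested as counts. Coverage never exceeded 8015, which acts as a ceiling: at T50 of CCT-4-1 the 2 libraries whose coverage had reached it at or 5′ of that base both had a stop rate of 0.05%, while T20, 5′ of where old BEU replicate 1 reached it, had 26.2% there. Sites under 7500 reads, at the base and 5′ of it in all 12 libraries, were also tested alone.

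The fit used edgeR 4.0.16 (quasi-likelihood, R 4.3.3) on stop and read-through counts of all 213 distinct tRNAs, with a coefficient per library and for each of the 4 groups. Bases with coverage under 20 in any library were left out. Calls required 3 things: an adjusted p (Benjamini-Hochberg, T apart from other bases) below 0.05, a rise in every pair, and a mean rise of 10 points or more. Pairs join the CMC and BEU libraries of 1 deposited table. The age difference was the interaction, at T bases whose average rise reached 10 points; the BEU comparison took bases whose mean BEU rate reached 5%. Coverage used TMM on the highest coverage of each tRNA. Alternatives included limma 3.58.1 and DESeq2 1.42.0. Named were every distinct tRNA, T bases that were called or rose by 10 points, T54 and T55 of every tRNA, called A, C and G bases with the 3 largest rises per age, and the 6 highest BEU rates; T16 of the TCT tRNAs, T50 outside CCT-4-1 and bases 34, 35 and 46 were named after their values were seen. The tRNAs and rules were chosen with earlier results of these data known. The fit was tested on simulated stops under 3 assumed spreads between libraries, the last estimated from these libraries after the first had recovered no age difference; recovery of age differences depended strongly on the spread, and the ceiling was not imitated. Reads carry no molecular identifiers here, so counting error alone understates the spread.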

Additional observations from a re-analysis of the deposited data

How the results depend on the processing

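The T-base counts (19 called in old cells, 18 in young cells) stayed within 1.5 times under limma, identical entries kept apart, a subtracted 1, both other rise minimums, 1 adjustment over all bases, coverage of 10 and bases below the ceiling; with coverage of at least 50 they were 11 and 10 of 49 bases. Leaving out 1 replicate gave 18 to 20 in old and 17 to 19 in young cells. Calls at A, C and G (5 in either age) were 2 with coverage of at least 50, 3 with 1 subtracted and 2 to 4 with 1 replicate left out. The age difference in CMC rises and the age difference in coverage stayed at 0 calls under every alternative run. BEU stops had 7 calls below the ceiling and 0 under the other alternatives. Of 818 values of single bases under alternatives, 59 lost a call, 9 gained one and none changed sign. Deviations from group means had no common direction by replicate number. They correlated at -0.3731, 0.5883 and -0.6305 between same-numbered old and young BEU libraries. Between the CMC and BEU libraries of 1 table they correlated at -0.1412 to 0.044. With 3 replicates, and 21 to 103 tRNAs at the ceiling in each BEU library, these values cannot decide whether same-numbered libraries share an effect. Pairs were used here only to say which libraries were subtracted. With a replicate block the T-base counts stayed at 19 and 18, and the calls at A, C and G were 2: lost were C27 of CCT-1-1 and CCT-2-1 in young cells (edgeR adjusted p = 0.117 and 0.133), A59 of TCT-2-1 (0.0786), G46 of TCT-3-1 (0.124) and G57 of TCT-5-1 (0.142). For lack of coverage, 62 of 138 T bases could not be tested.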
